A study of Mus musculus with 2 samples.

Results

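The S100 genes S100a8, S100a9, S100a4, S100a6, S100a10 and S100a11 were analysed in spleen cells of 1 wild-type and 1 sickle cell disease (SCD) mouse. They were chosen by symbol, and these 6 genes were found once each among the 26124 genes of both count matrices. Single-cell RNA sequencing (10x Genomics 3′ v3.1 chemistry) had been performed on spleen suspensions after magnetic depletion of other cells, which enriches dendritic cells (DCs), to ask how chronic hemolysis changes splenic cell types. Both mice were 12 to 16 weeks old and untreated, and each group held 1 mouse, so no value below has a replicate check. The animal called wild-type was a non-sickling control and not a mouse without transgenes. It was homozygous for the targeted alpha globin allele Hbatm1Paz, had 1 targeted and 1 normal beta globin allele (Hbbtm1Tow) and carried 1 copy of the human sickle globin transgene Tg(HBA-HBBs)41Paz. The SCD mouse (Berkeley model) was homozygous for all of these alleles, so both animals shared the alpha globin deletion and the transgene, on a mixed genetic background.

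S100 proteins are small calcium sensors that change shape on binding calcium and then dock onto partner proteins. S100a8 and S100a9 pair to form calprotectin, a main cytosolic protein of neutrophils that binds zinc and manganese and, once released, acts as a danger signal through Toll-like receptor 4 and the receptor for advanced glycation end products. S100a4 binds non-muscle myosin and S100a6 binds Cacybp and annexins, while S100a10 forms a complex with annexin A2 at the plasma membrane and S100a11 binds annexin A1.

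The 6 genes lie on mouse chromosome 3 (GRCm38, GENCODE annotation) as protein-coding genes, and all but S100a9 are on the plus strand. S100a4 spans chr3:90603771-90606045, S100a6 spans chr3:90612882-90624181, S100a8 spans chr3:90668978-90670035 and S100a9, on the minus strand, spans chr3:90692632-90695721. S100a11 at chr3:93520488-93526287 and S100a10 at chr3:93555080-93564643 form a second group further along the chromosome. S100a4 overlaps the gene Gm42674 on the same strand, and S100a11 has a pseudogene (S100a11-ps), so counts of both could have been affected and their levels are less certain than those of the others.

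Promoter sequences from RefSeq (GRCm38.p6) were at hand for 5 of the 6 genes, and S100a10 had none. The windows before the starts of S100a8 and S100a9 are shown because the levels of these genes ran together across the cell types below. Capitals mark matches of the motifs searched on both strands, in 5′ to 3′ orientation on the strand of the gene, and the matches do not overlap each other. The first stretch is chr3:90668821-90668977 (plus strand), which ends where GENCODE places the start of S100a8. The second is the last 30 bases before the RefSeq start of S100a8, chr3:90669041-90669070, and the third is chr3:90695722-90695971 (minus strand).
S100a8 upstream: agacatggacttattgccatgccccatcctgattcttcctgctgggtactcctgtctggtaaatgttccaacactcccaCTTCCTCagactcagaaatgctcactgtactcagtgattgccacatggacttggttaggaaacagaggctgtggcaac
S100a8 start: TATAAAagcagctgacacttagcctcacat
S100a9 upstream: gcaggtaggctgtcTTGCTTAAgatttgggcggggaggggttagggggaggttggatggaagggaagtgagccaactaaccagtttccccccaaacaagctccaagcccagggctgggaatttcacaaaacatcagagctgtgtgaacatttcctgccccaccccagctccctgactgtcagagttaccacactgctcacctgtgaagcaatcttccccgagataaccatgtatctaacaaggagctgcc

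In the 250 bases before the RefSeq start, the C/EBP motif TTGCNNAA was matched in S100a9 only, 236 to 229 bases before the start. C/EBP factors drive granulocyte genes, and this motif was in 9.56% of the 32851 promoter windows of the same length. The motif GAGGAAG of ETS factors of the PU.1 kind was matched in S100a8 only, on the opposite strand, 171 to 165 bases before the start, and in 10.6% of all windows. The TATA box letters TATAAA stood 30 to 25 bases before the start of S100a8 and 31 to 26 bases before that of S100a4, against 12.4% of all windows. The antioxidant response element core TGACNNNGC, bound by NRF2 with small MAF proteins, was in 10.2% of windows and in none of the 5 searched here. These matches describe the letters of the windows and no factor binding was measured.

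The wild-type library held 10845 cells with 97880318 unique molecular identifiers (UMIs, 1 per captured RNA molecule) and the SCD library 13447 cells with 189688217. Filtering kept 9423 and 10635 cells, with a median of 4884 and 8282 UMIs per cell. As a check of the labels, the targeted beta globin gene Hbb-bs was at 2293 CPM (counts scaled to 1000000 UMIs of the cells summed) in the wild-type and at 20.8 CPM in the SCD library. Hba-a1 was at 915 and 792 CPM although the labels give a null alpha globin locus for both animals. The libraries shared 88 cell barcodes, 22 of them among the kept cells. Neutrophils, named from markers, were the most numerous cells despite the DC enrichment, with 4241 wild-type and 7112 SCD cells, and each of the 12 neutrophil markers was above 10 CPM in both. The other classes were monocytes (858 and 943 cells), conventional DCs (2324 and 614), plasmacytoid DCs (pDCs, 821 and 672), red pulp macrophages (288 and 156), erythroid cells (55 and 51) and early B cells (21 and 287). Intervals in brackets are exact 95% intervals that cover counting error only.

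S100a8 and S100a9 dominated the neutrophil transcriptome of both mice. In wild-type neutrophils S100a8 was at 110792 CPM and S100a9 at 124578 CPM, and in SCD neutrophils they were at 161966 and 176220 CPM. Together they supplied 23.5% of all UMIs of wild-type neutrophils and 33.8% of those of SCD neutrophils, and over the kept cells of each library S100a9 ranked 1 and S100a8 ranked 2 among all genes. Of the S100a8 UMIs, 91.0% in wild-type and 95.7% in SCD came from neutrophils, and of the S100a9 UMIs 90.9% and 95.6%.

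S100a6 and S100a11 were the other members expressed in neutrophils. S100a6, which is known from growth-stimulated cells, was at 5789 CPM in wild-type and 5496 CPM in SCD neutrophils. S100a11 was at 5985 and 3456 CPM. S100a4 and S100a10, in contrast, lay at 15.5 and 8.13 CPM in wild-type and at 8.71 and 12.5 CPM in SCD neutrophils. After each cell had been thinned to 1000 UMIs, a UMI of S100a4 was found in 1.79% of wild-type (1.41 to 2.23) and 0.929% of SCD neutrophils (0.720 to 1.18), and without thinning in 4.74% and 6.38%. In cDC1, whose S100a4 level was also low, the thinned shares were 1.68% (0.204 to 5.94) and 3.23% (1.06 to 7.37), with medians of 14315 and 14009 UMIs per cell against 2454 and 7009 in neutrophils. A UMI of S100a10 was found in 1.07% and 1.72% of thinned neutrophils and in 2.69% and 9.56% before thinning, against 2.39% (0.781 to 5.49) and 1.47% (0.179 to 5.21) of thinned red pulp macrophages. The neutrophil shares lay within these intervals, except for S100a4 in SCD, which lay below. These intervals are wide, so low expression of both genes in neutrophils could not be told from background under this filter. With no upper limit on genes per cell, S100a4 was at 72.8 and 124 CPM and S100a10 at 120 and 272 CPM in neutrophils, above the 50 CPM used here for an expressed gene.

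**Figure D1:**
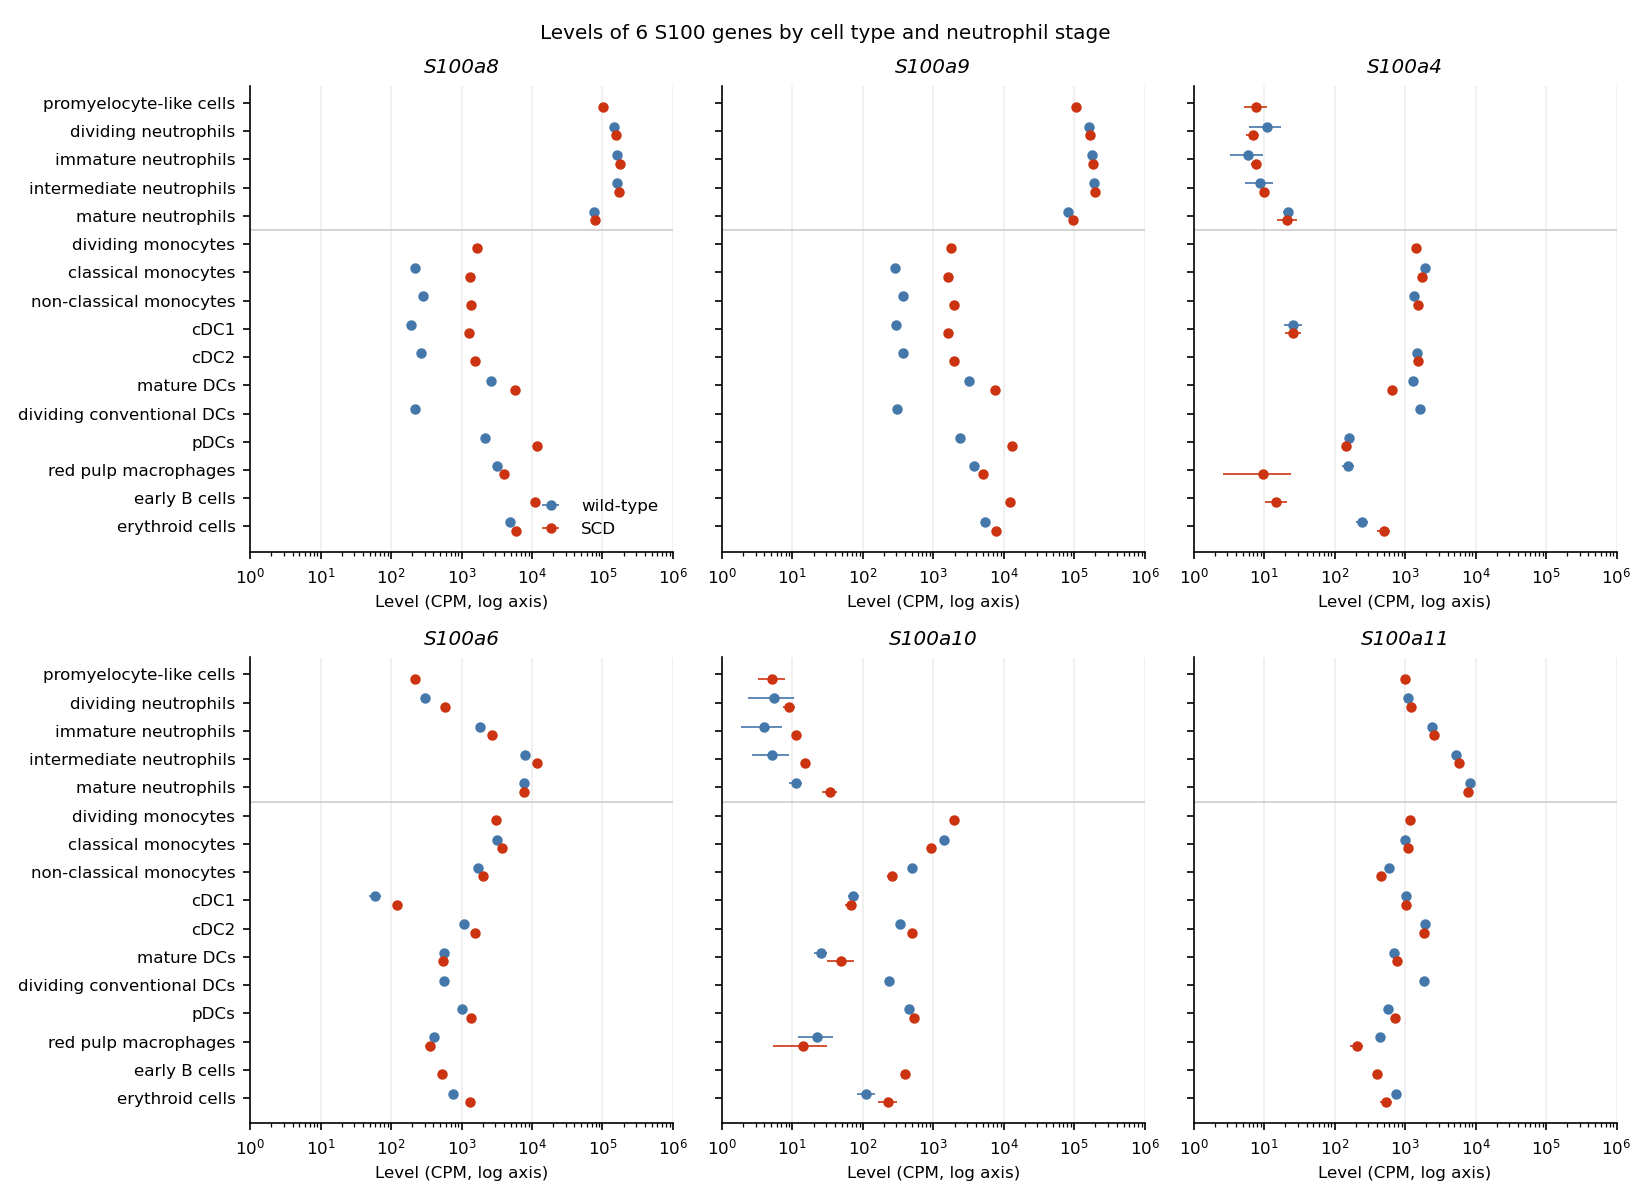
Levels of the 6 genes (x axis, CPM on a log scale) in each cell type or neutrophil stage (y axis) with at least 50 cells in a library; points are summed UMIs of a library, bars exact 95% Poisson intervals, blue wild-type and red SCD, and the grey line parts neutrophil stages from other cells. S100a8 and S100a9 separate neutrophils (up to 177810 and 193836 CPM) from all other cells, while S100a4 and S100a10 are highest in monocytes (up to 1930 and 1975 CPM).

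Between the libraries, neutrophils as a whole differed in opposite directions for these genes. S100a8 was 1.46-fold (1.46 to 1.46) and S100a9 1.41-fold (1.41 to 1.42) higher in SCD than in wild-type neutrophils. S100a11 was at 0.577 times the wild-type level (0.573 to 0.582) and S100a6 at 0.949 times (0.942 to 0.956). No member expressed in neutrophils (at least 50 CPM and 20 UMIs in a library, 4 of 6) was past 2-fold on the log2(CPM + 5) scale. Of all 2479 genes expressed there, 1.53% were at least 2-fold higher and 19.3% at least 2-fold lower in SCD. The median log2 difference was 0.21 over the 4 members and −0.38 over all expressed genes. Scaling by the median ratio over expressed genes shifted the ratios of S100a8, S100a9, S100a6 and S100a11 to 1.93, 1.86, 1.25 and 0.761, so that S100a6 moved to the other side of 1. As UMIs per cell they were 3.35, 3.24, 2.18 and 1.32, with medians of 2454 UMIs in a wild-type and 7009 in an SCD neutrophil.

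The neutrophils of the libraries were at different stages of maturation, and the members followed the stages. Of the staged wild-type neutrophils 84.6% were mature, against 12.3% of the SCD neutrophils, of which 50.3% were intermediate, 25.3% immature, 9.75% dividing and 2.34% promyelocyte-like. The median UMI count per SCD cell was 24173 at the promyelocyte-like and 2080 at the mature stage, and mature cells supplied 56.3% of the staged wild-type UMIs and 3.21% of the SCD UMIs. S100a8 was at 102256 CPM in promyelocyte-like, 157602 in dividing and 177810 in immature SCD cells, then lay at 169189 in intermediate and 79291 in mature cells. The wild-type series ran in parallel, with 144275 CPM in dividing, 162450 in immature, 160500 in intermediate and 74891 in mature neutrophils. By stage, S100a9 was highest in intermediate cells in both libraries, at 190913 and 193836 CPM, and was at 82327 and 96608 CPM in mature cells. The counting intervals of neighbouring stages did not overlap for either gene, although S100a8 of wild-type immature (161956 to 162946 CPM) and intermediate cells (159985 to 161016 CPM) came close.

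S100a6 was the most stage-dependent member. It was at 215 CPM in promyelocyte-like, 591 in dividing, 2711 in immature and 11915 in intermediate SCD cells, and then at 7680 CPM in mature cells, a 55.3-fold range. In the wild-type library it was at 305, 1843, 7830 and 7650 CPM from dividing to mature cells. S100a11 was higher at each later stage in both libraries, with 1114, 2426, 5272 and 8345 CPM from dividing to mature wild-type cells and 1208, 2531, 5762 and 7914 CPM in SCD cells. From the promyelocyte-like cells (982 CPM) on, its range in SCD was 8.06-fold. By whole stage, the highest level was thus in immature cells for S100a8, in intermediate cells for S100a9 and S100a6 and in mature cells for S100a11, in both libraries. For wild-type S100a8 this order did not hold in finer groups of cells. An intermediate sub-cluster (165978 CPM) lay above both immature sub-clusters (163975 and 160777 CPM). A further sub-cluster of 139 cells led by Igkc was given no stage.

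**Figure D2:**
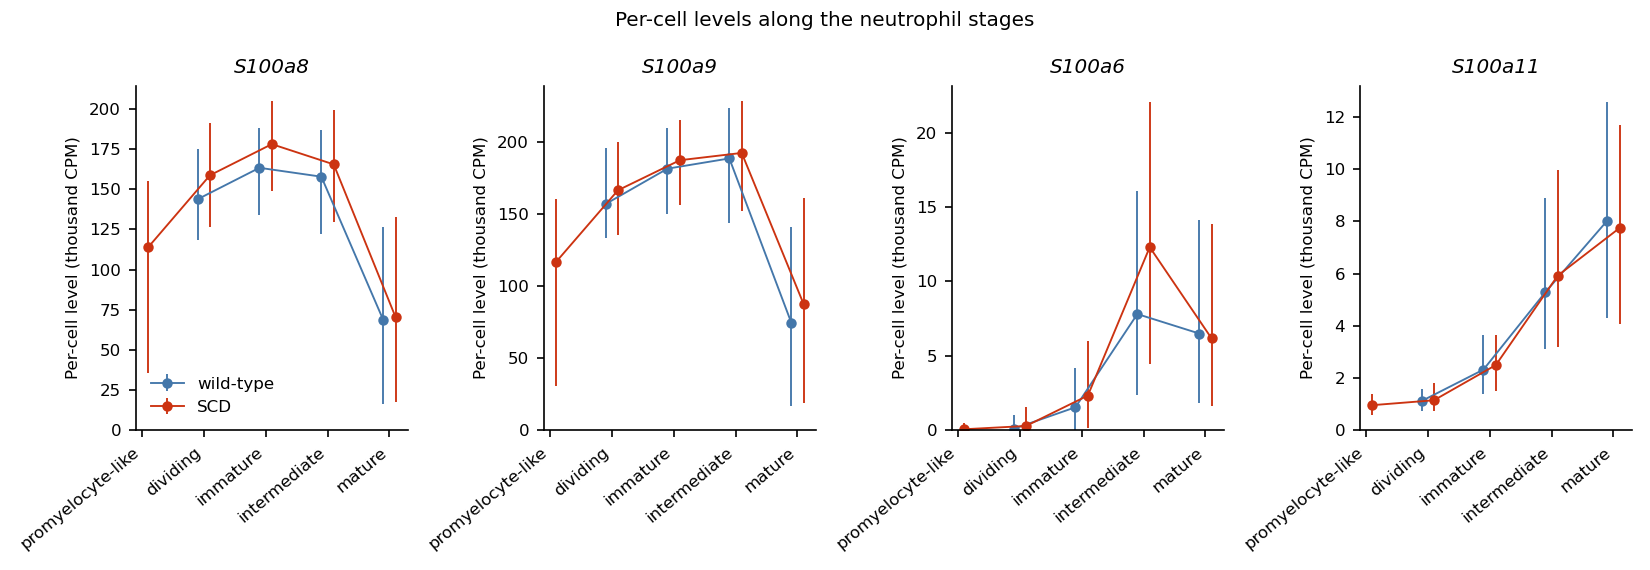
Per-cell levels (y axis, in 1000 CPM, linear from 0) of S100a8, S100a9, S100a6 and S100a11 at 5 neutrophil stages (x axis); points are medians over cells, bars run from the 10th to the 90th percentile of cells, blue wild-type and red SCD, with promyelocyte-like cells shown for SCD only (13 wild-type cells). The median of S100a8 in mature cells is 68590 CPM in wild-type and 70252 CPM in SCD, and that of S100a6 in intermediate cells 7806 and 12311 CPM.

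Compared stage by stage, S100a8, S100a9 and S100a11 had ratios nearer to 1. The ratio of SCD to wild-type for S100a8 was 1.09 in dividing, 1.09 in immature, 1.05 in intermediate and 1.06 in mature cells. For S100a9 it was 1.04, 1.03, 1.02 and 1.17, and for S100a11 it was 1.08, 1.04, 1.09 and 0.948. These ratios ran from 0.948 to 1.17. Under the alternatives those in mature cells ran from 0.893 to 1.46 for S100a8 and from 0.985 to 1.58 for S100a9, both highest at Leiden resolution 2. As UMIs per cell, from dividing to mature cells, S100a8 was at 0.937, 1.01, 0.937 and 0.954. On that scale S100a9 was at 0.892, 0.945, 0.902 and 1.06, and S100a11 at 0.931, 0.960, 0.971 and 0.855, so most values lay below 1. The counting intervals of the main ratios leave out 1, since the counts are large, and with 1 mouse per group the spread between mice is not known. None of the 4 expressed members was past 2-fold at any of these stages. Across all expressed genes, 0.281% were at least 2-fold higher and 0.234% lower in dividing cells, 0.0552% and 0.166% in immature cells, 0.595% and 0.248% in intermediate cells, and 1.39% and 0.616% in mature cells.

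S100a6 was the exception among the expressed members. Its level was 1.94-fold higher in SCD in dividing cells (1.76 to 2.13), 1.47-fold in immature cells (1.43 to 1.52) and 1.52-fold in intermediate cells (1.50 to 1.54), while it was 1.004-fold in mature cells (0.986 to 1.02). In the 5 sub-clusters that make up all but 7 cells of the immature and intermediate stages the ratio was 1.53, 1.36, 1.37, 1.54 and 1.34, so it was above 1 in each of these finer groups of cells. The second of them, with 116 of 220 wild-type and 1004 of 1773 SCD immature cells, was led by the globin genes Hbb-bs and Hba-a1, and without it the immature ratio was 1.53 (1.45 to 1.61). The share of thinned immature cells with an S100a6 UMI was 64.5% in wild-type (57.8 to 70.9) and 73.3% in SCD (71.1 to 75.3), and before thinning 88.2% and 94.0%. When each library was clustered on its own the ratio in immature cells was 0.969, the lowest of the alternatives, and in intermediate cells it was at least 1.14 under every alternative.

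Both libraries filled the mature stage, but from different sub-clusters. The sub-cluster led by the immediate early and cytokine genes Fos, Dusp1 and Il1b held 2852 wild-type and 152 SCD cells, and the one led by Clec4n, Slfn5 and the interferon-induced gene Isg15 held 714 and 710. In the first, S100a8 was at 79054 and 80866 CPM and S100a9 at 86819 and 99662 CPM. In the second, S100a8 was at 57866 and 78970 CPM, a ratio of 1.36 (1.35 to 1.38), and S100a9 at 63949 and 95986 CPM, a ratio of 1.50 (1.49 to 1.51). The ratio of S100a11 was 0.978 and 1.02 in them, and that of S100a6 was 0.972 (0.933 to 1.01) and 1.18 (1.15 to 1.22), so the 1.004 over all mature cells pools unlike sub-clusters. The granule genes Camp (63.6 and 728 CPM), Ngp (64.0 and 542 CPM) and Ltf (28.0 and 198 CPM) were also higher in SCD mature cells. Lcn2 (1033 and 1219 CPM) and Retnlg (7757 and 7497 CPM) were closer between the libraries. The part of granule genes in the S100a9 ratio was not tested. The spread of S100a8 over single mature cells was wide, from 16132 CPM at the 10th to 126194 CPM at the 90th percentile in wild-type and from 17340 to 132799 CPM in SCD.

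To set the stages aside, SCD stage levels were weighted by the stage mix of the wild-type UMIs. The ratio then became 1.07 for S100a8, 1.08 for S100a9, 1.14 for S100a6 and 0.976 for S100a11, against 1.47, 1.42, 0.937 and 0.570 over the same staged cells as observed. With the stage mix of the SCD library they were 1.07, 1.02, 1.49 and 1.06. The latter mix gives 6.90% of the weight to the promyelocyte-like stage, which held only 13 wild-type cells. At either mix S100a8, S100a9 and S100a11 thus lay nearer to 1 than observed, and S100a6 lay above 1. S100a10, at levels not told from background, had ratios of 2.86 in immature (10 and 212 UMIs, 1.52 to 6.05), 2.96 in intermediate (1.67 to 5.78) and 3.06 in mature neutrophils (96 and 64 UMIs, 2.20 to 4.24). Its ratio ran from 1.92 to 8.14 over 7 neutrophil sub-clusters, and no change was read from levels this low. S100a4 was at 21.5 and 21.3 CPM in mature cells.

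**Figure D3:**
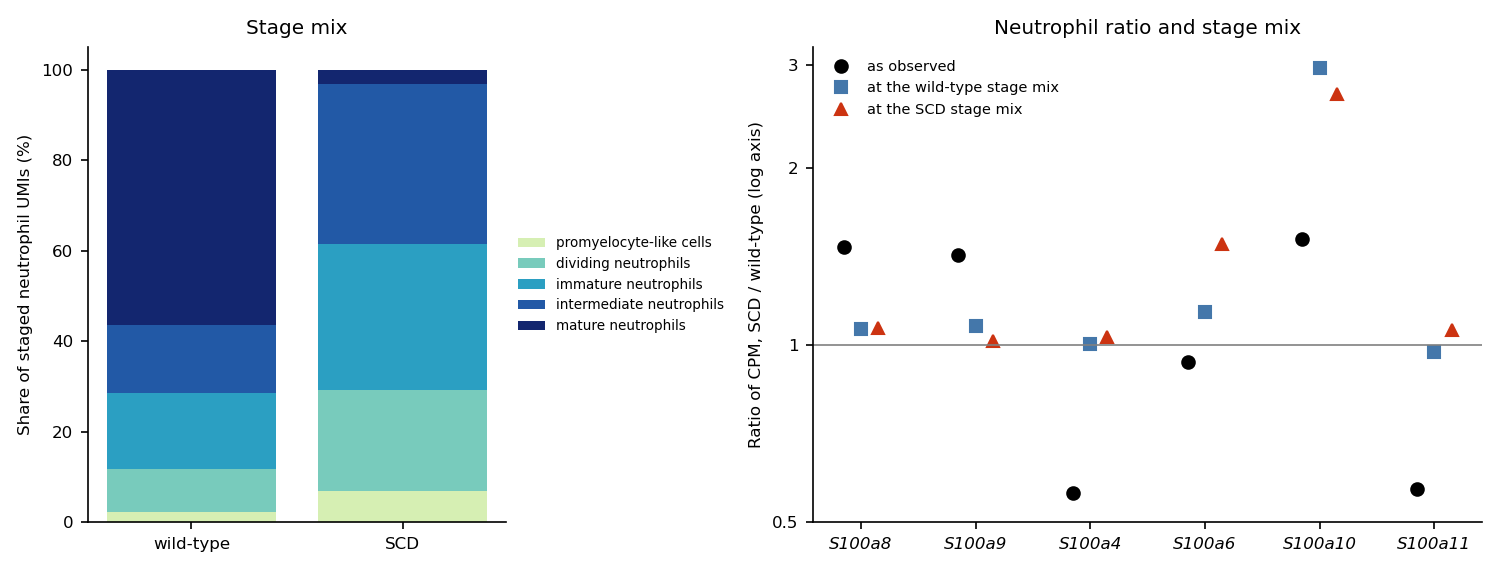
Left, share of the UMIs of staged neutrophils (y axis, percent) by stage in each library. Right, ratio of CPM in SCD over wild-type neutrophils (y axis, log scale) for each gene as observed (circles), with the wild-type stage mix (squares) and with the SCD stage mix (triangles); S100a8 moves from 1.47 to 1.07 and S100a11 from 0.570 to 0.976 at the wild-type mix.

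S100a8 and S100a9 kept a near-constant proportion. There were 0.889 UMIs of S100a8 per UMI of S100a9 in wild-type (0.888 to 0.891) and 0.919 in SCD neutrophils (0.918 to 0.920). By stage the proportion ran from 0.841 in intermediate to 0.910 in mature wild-type cells, and from 0.821 in mature to 0.980 in promyelocyte-like SCD cells. Across single neutrophils, log2(CPM + 50) of the genes correlated with r = 0.893 over 4199 wild-type and r = 0.928 over 7101 SCD cells, a description in which both values of a cell share its depth and stage.

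The genes whose levels ran most like each member were searched over 28 profiles of cell type or stage and library, which share libraries and depth. The most similar gene to S100a8 was S100a9 (r = 0.9996), followed by Wfdc21 (0.984) and Lcn2 (0.963), the latter encoding the siderophore-binding protein lipocalin 2. For S100a9 they were S100a8, Wfdc21 (0.984) and again Lcn2 (0.963). S100a4 was most like Ptpro (0.975), Ms4a4c (0.954) and Ms4a6b (0.947), and S100a10 most like Dpysl2 (0.902), Ahnak (0.895), a large scaffold protein known to bind S100a10 with annexin A2, and the chemokine receptor gene Ccr2 (0.893). S100a6 ran most like Ccdc180 (0.909), Tmem71 (0.908) and Anxa2 (0.899), and S100a11 like Hdac4 (0.882), Il1r2 (0.874) and Pacs1 (0.844). Between members, S100a4 and S100a10 ran together (r = 0.771), and both ran against S100a8 (−0.769 and −0.741).

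S100a4, S100a6 and S100a10 were highest outside neutrophils in monocytes, which patrol or give rise to macrophages. In classical monocytes, marked by Ly6c2 and Ccr2, S100a4 was at 1930 CPM in wild-type and 1756 CPM in SCD cells, a ratio of 0.910 (0.884 to 0.936). S100a6 was at 3228 and 3699 CPM there, and S100a11 at 1006 and 1095 CPM. S100a10 was at 1402 and 924 CPM in classical monocytes, a ratio of 0.659 (0.636 to 0.684), and at 499 and 256 CPM in non-classical monocytes, a ratio of 0.513 (0.442 to 0.593). Over all monocytes S100a10 was nevertheless 1.23-fold higher in SCD, a class that included 322 dividing cells in SCD (1975 CPM of S100a10) and 32 in wild-type (2070 CPM). The sign of the S100a10 difference over all monocytes was thus opposite to that in both non-dividing types. S100a4 of non-classical monocytes was at 1342 and 1532 CPM, a ratio of 1.14 (1.07 to 1.22). The libraries filled both types from different sub-clusters. Of the classical cells, 379 of 390 wild-type cells lay in 1 sub-cluster that held 8 SCD cells, and the SCD cells lay in 2 others (269 and 241 cells, against 6 and 5). Of the non-classical cells, 339 of 433 wild-type and 27 of 91 SCD cells lay in 1 sub-cluster, and 94 and 64 in the other.

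In conventional DCs the members divided cDC2 from cDC1. S100a4 was at 1477 CPM in wild-type and 1520 CPM in SCD cDC2, a ratio of 1.03 (0.994 to 1.07), but at 25.9 and 26.0 CPM in cDC1. S100a6 was at 1092 and 1556 CPM in cDC2 and at 59.1 and 122 CPM in cDC1, with ratios of 1.43 (1.37 to 1.48) and 2.06 (1.64 to 2.61). The cDC1 ratio was 0.637 when each library was clustered on its own. The make-up of cDC2 differed, since 1 sub-cluster, led by genes that include Clec10a and Cd209a, held 77 of 1468 wild-type and 76 of 299 SCD cells, while 2 others held 285 and 407 wild-type cells against 14 and 18. S100a11 was more even, with 1922 and 1882 CPM in cDC2 and 1039 and 1038 CPM in cDC1, both ratios within counting error of 1 (0.980, 0.949 to 1.01, and 0.9999, 0.940 to 1.06). S100a10 was at 335 and 502 CPM in cDC2, 1.50-fold higher in SCD (1.41 to 1.599), but this ratio was 0.579 with called doublets removed and 2.27 when each library was clustered on its own.

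Mature DCs, the Ccr7+ state that migrates to T cell zones, had less S100a4 in SCD. S100a4 was at 1311 CPM over 539 wild-type and at 656 CPM over 72 SCD cells, a ratio of 0.501 (0.443 to 0.564). A UMI of S100a4 was found in 60.1% of thinned wild-type and 29.6% of thinned SCD mature DCs, and the ratio stayed between 0.354 and 0.655 under the alternatives. S100a11 (706 and 767 CPM) and S100a6 (569 and 555 CPM) had ratios whose intervals include 1 (1.09, 0.967 to 1.22, and 0.974, 0.849 to 1.11). Without the mitochondrial and ribosomal filter these ratios were 1.57 and 0.496. The sub-clusters of mature DCs were filled unequally, and the one with most wild-type cells held 287 of 539 against 17 of 72 SCD cells, while another held 89 and 28. Globin genes (Hbb-bs and Hba-a1) were among the leading genes of the first, and no mature DC marker was. Without it, over 252 and 55 cells, the ratio was 0.354 for S100a4 (0.293 to 0.426), 0.748 for S100a11 (0.653 to 0.853) and 0.740 for S100a6 (0.633 to 0.861). Over all conventional DCs S100a4 was at 1282 and 779 CPM, a value that also carries the smaller part of cDC2 in the SCD library (1468 of 2324 wild-type against 299 of 614 SCD cells).

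pDCs, the interferon-producing DC lineage, had S100a6 at 1031 and 1375 CPM, 1.33-fold higher in SCD (1.30 to 1.37). S100a11 was at 567 and 720 CPM, a ratio of 1.27 (1.22 to 1.32), and S100a10 at 448 and 529 CPM. The per-cell medians were closer for S100a6 (737 and 788 CPM) and were 293 and 394 CPM for S100a11. Neutrophil markers, which summed to 1046 and 7756 CPM in pDCs, and conventional DC markers, at 11222 and 5373 CPM, also differed, and their part was not tested. The libraries filled the 3 pDC clusters unequally, with 654 and 456 cells in the main one, 72 and 195 in one led by Bcl2 and Ly6d, and 95 and 21 in the last. S100a4 was low, at 161 and 143 CPM (ratio 0.891, 0.822 to 0.966), and its ratio was 1.70 with called doublets removed. The S100a11 ratio was 0.831 with no upper limit on genes per cell.

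**Figure D4:**
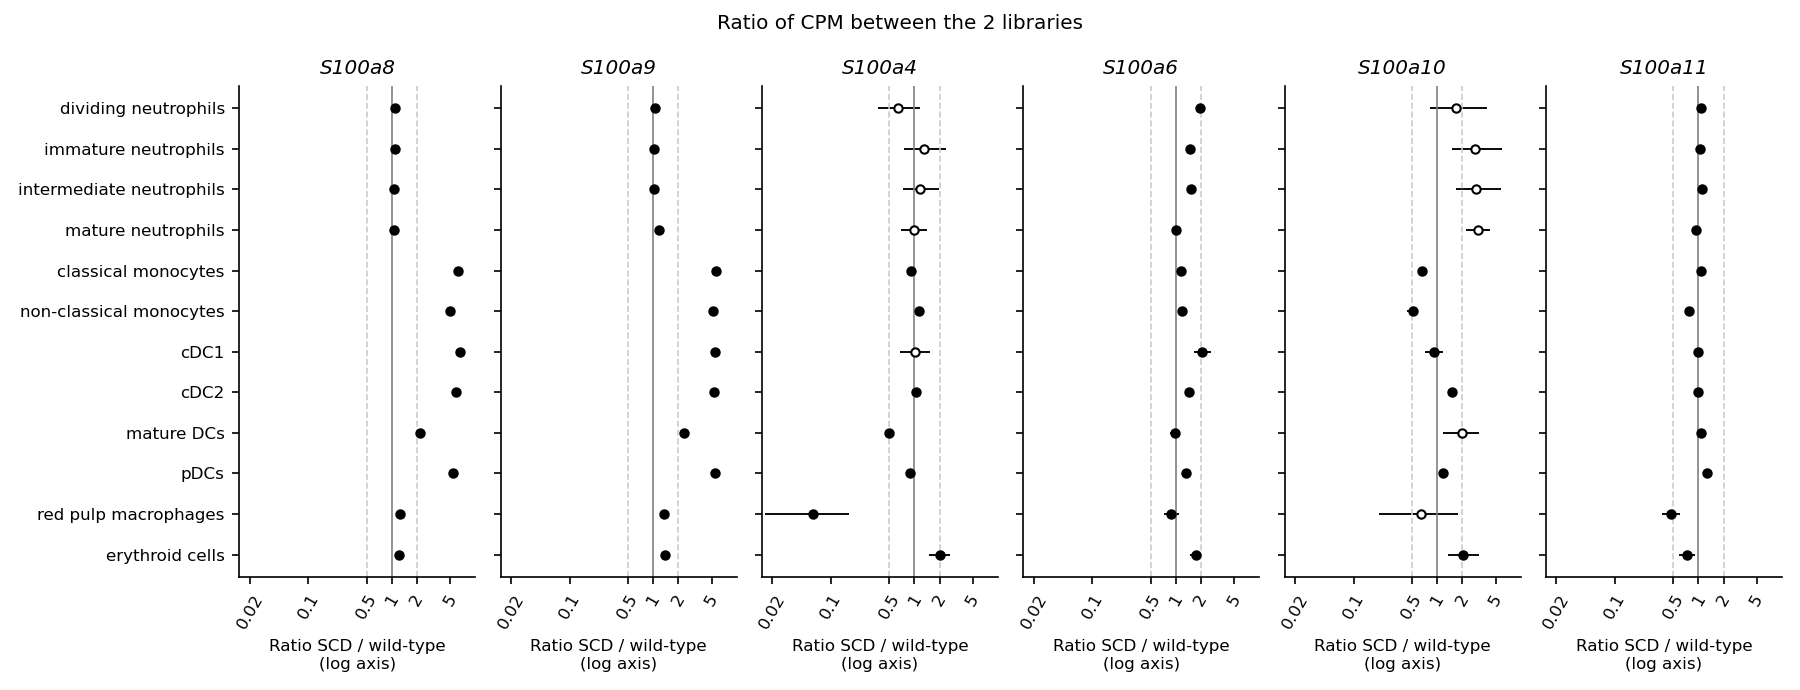
Ratio of CPM in SCD over wild-type (x axis, log scale) for each of the 6 genes in the cell types and neutrophil stages with at least 50 cells in both libraries (y axis); bars are exact 95% counting intervals, filled points genes with at least 50 CPM, open points lower genes, and dashed lines 2-fold. S100a8 and S100a9 lie near 1 in neutrophil stages and between 4.90 and 6.56 in classical and non-classical monocytes, cDC1, cDC2 and pDCs. In mature DCs, red pulp macrophages and erythroid cells they lie between 1.21 and 2.32, and S100a4 of red pulp macrophages lies at 0.0616.

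Outside neutrophils, S100a8 and S100a9 were the only members past 2-fold in monocytes, conventional DCs and pDCs, and they were higher in SCD in all of these. In monocytes S100a8 was at 285 and 1477 CPM (ratio 5.19, 4.96 to 5.42) and S100a9 at 359 and 1718 CPM (ratio 4.79). In pDCs S100a8 was at 2153 and 11669 CPM and S100a9 at 2421 and 13178 CPM, with ratios of 5.42 and 5.44. In conventional DCs the ratios were 2.54 and 2.60. The per-cell median of S100a8 there was 229 and 1431 CPM, against summed levels of 662 and 1683 CPM, and its ratio was 4.42 at Leiden resolution 2. The background share of genes at least 2-fold higher in SCD was 3.04% in monocytes, 2% in conventional DCs and 2.2% in pDCs, and of those at least 2-fold lower 5.31%, 4.03% and 0.762%.

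The ratios of S100a8 depended on the processing, at 0.722 in monocytes with at least 1000 genes per cell, at 1.40 in pDCs without the mitochondrial and ribosomal filter and at 13.95 in pDCs with called doublets removed. In cDC1 the ratio was 6.56, and 1.22 when each library was clustered on its own, while in cDC2 it was 5.82 and ran from 5.47 to 6.89. In pDCs the per-cell median of S100a8 was 205 and 1336 CPM, well below the summed level.

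Other transcripts of neutrophils were higher in the same cells. The granule genes Camp, Ngp, Ltf, Lcn2 and Retnlg, which define neutrophils, were together at 111 CPM in wild-type and 809 CPM in SCD monocytes, at 194 and 988 CPM in conventional DCs and at 819 and 7149 CPM in pDCs. The summed level of the 12 neutrophil markers was likewise 543 and 1269 CPM in monocytes, 393 and 1105 CPM in conventional DCs and 1046 and 7756 CPM in pDCs, and 9 to 11 of the 12 were above 10 CPM in each. Per UMI of these granule genes there were 3.95 UMIs of S100a8 and S100a9 in SCD monocytes, 3.91 in SCD conventional DCs, 3.48 in SCD pDCs and 3.70 in SCD early B cells, against 3.27 in SCD neutrophils. In wild-type monocytes, conventional DCs and pDCs they were 5.81, 7.74 and 5.59, against 4.07 in neutrophils. Other classes had higher values, with 5.19 in red pulp macrophages, 5.46 in mature DCs and 5.67 in erythroid cells of SCD and 17.7, 11.6 and 7.81 in those of wild-type. Among neutrophil stages of SCD the value ran from 2.46 in dividing to 17.3 in mature cells, so there was no single neutrophil value to compare with. The part of free neutrophil RNA or of neutrophils caught with other cells in these levels was not tested.

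The per-cell median of S100a8 varied less across cell types than its summed level. It ran from 161 CPM in dividing conventional DCs to 381 CPM in red pulp macrophages over 9 wild-type cell types, and from 1065 CPM in dividing monocytes to 3976 CPM in erythroid cells over 10 SCD cell types, while the summed level ran from 192 to 4867 and from 1262 to 11669 CPM. After thinning, a UMI of S100a8 was found in 14% to 38.2% of the cells of these wild-type and in 68.9% to 98.0% of those of these SCD cell types. Early B cells, which are not known to make S100a8, had one in 82.2% of SCD cells (77.2 to 86.4), with a median of 5064 UMIs per cell, while classical monocytes had one in 72.8% (68.7 to 76.6), with a median of 11805. The share in classical monocytes was thus not above that in early B cells, which were shallower before thinning. Neutrophil markers summed to 6845 CPM in SCD early B cells and to 1269 CPM in SCD monocytes, so the early B cells are not a baseline free of neutrophil RNA. Whether monocytes themselves expressed S100a8 was not tested.

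**Figure D5:**
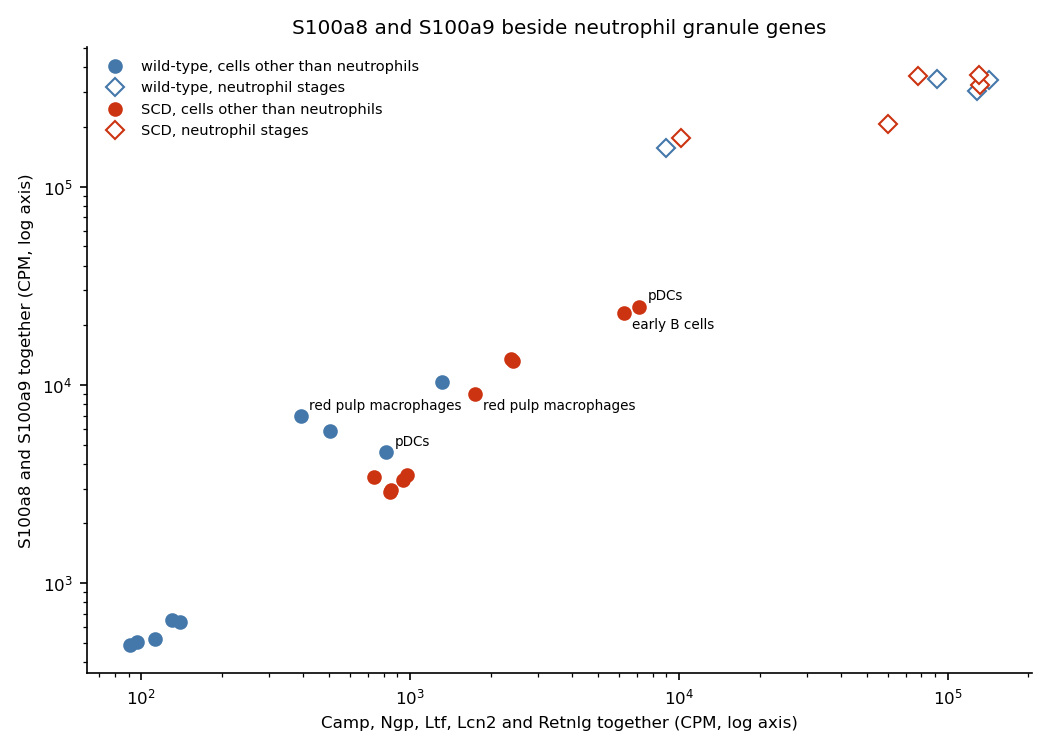
Summed level of S100a8 and S100a9 (y axis, CPM, log scale) against that of 5 neutrophil granule genes (x axis, CPM, log scale) in each cell type with at least 50 cells; filled points are cells other than neutrophils and open diamonds neutrophil stages, blue wild-type and red SCD. The filled points of SCD lie to the upper right of most wild-type points, up to 7149 CPM of granule genes in SCD pDCs.

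Red pulp macrophages, which clear aged erythrocytes, were the class in which members were at least 2-fold lower in SCD, 2 of the 5 expressed. S100a4 was at 155 CPM in wild-type (97 UMIs) and at 9.52 CPM in SCD cells (4 UMIs), a ratio of 0.0616 (0.0165 to 0.163). S100a11 was at 435 and 207 CPM, a ratio of 0.476 (0.370 to 0.608), while S100a6 was at 402 and 355 CPM (0.883, 0.717 to 1.09), and at a ratio of 0.588 under total count normalization and 1.84 without the mitochondrial and ribosomal filter. The background was 5.51% of genes at least 2-fold lower and 3.03% at least 2-fold higher. Markers of some other cells were also lower in SCD red pulp macrophages. The 13 conventional DC markers summed to 6693 CPM in wild-type (7 of them above 10 CPM) and 957 CPM in SCD (4 of them). The 11 monocyte markers summed to 3240 and 2112 CPM, and erythroid markers to 4500 and 1950 CPM. In contrast, neutrophil markers were at 880 and 2043 CPM, promyelocyte markers at 97.2 and 224 CPM and B cell markers at 163 and 386 CPM. Those of pDCs were at 892 and 907 CPM. S100a4 and S100a11 were at 1477 and 1922 CPM in wild-type cDC2, and the part of such cells in these values was not tested. The S100a4 value rested on few cells, since 69 of the 97 wild-type UMIs came from 5 of 288 cells and 19 cells held any. For S100a11, 5 cells held 104 of 273 wild-type and 53 of 87 SCD UMIs, and the share of cells with a UMI was 19.8% in wild-type and 21.8% in SCD, or 13.4% (9.09 to 18.8) and 11.0% (6.31 to 17.5) after thinning. The S100a4 ratio was 0.925 and that of S100a11 0.815 without the mitochondrial and ribosomal filter, and cells of this class were shallow, with medians of 1334 and 1544 UMIs.

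Of the other S100 genes of the list, 10 were in the files and 1 of them, S100a13, was expressed in neutrophils, at 117 CPM in wild-type and 170 CPM in SCD cells. S100a13 was highest in wild-type classical monocytes (211 CPM) and in SCD dividing monocytes (297 CPM). S100a1, best known from heart muscle, reached 166 CPM in SCD promyelocyte-like cells and 79.7 CPM in wild-type red pulp macrophages. S100b, S100g, S100z, S100a14 and S100a16 had 8 UMIs or fewer in each library. S100a2, which was not on the list, had 52 UMIs in the wild-type and 104 in the SCD library.

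Of the 9 annexins and other binding partners, 6 were expressed in neutrophils, 1 was at least 2-fold lower and none higher, against 19.3% of all expressed genes lower. This was Anxa6, at 156 CPM in wild-type and 41.9 CPM in SCD neutrophils, while Anxa1, the partner of S100a11, was at 1969 and 3192 CPM and Anxa2, the partner of S100a10, at 1013 and 594 CPM. In mature neutrophils none of 5 was past 2-fold, and Anxa6 was at 253 and 295 CPM. In monocytes none of 7 was past 2-fold, with Anxa2 at 834 and 902 CPM and Ahnak at 1430 and 824 CPM. In red pulp macrophages 1 of 7, Anxa2, was at least 2-fold lower (182 and 83.3 CPM), against 5.51% of all expressed genes.

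Receptors that bind released S100a8 and S100a9 were low in neutrophils as a whole, where 1 of 6 (Bsg, 63.1 and 62.8 CPM) was expressed. In mature neutrophils 3 were, among them Cd14 at 72.1 and 92.8 CPM and Ly96, the co-receptor of Toll-like receptor 4, at 58.5 and 61.8 CPM, and none was past 2-fold. The scavenger receptor gene Cd36 was lower in SCD monocytes (183 and 12.6 CPM), 1 of 3 expressed receptors against 5.31% of all expressed genes. It was higher in SCD red pulp macrophages (20.7 and 54.8 CPM), 1 of 5 against 3.03%. The latter rested on 13 and 23 UMIs (ratio interval 1.28 to 5.68), and only the SCD level passed the 50 CPM limit for an expressed gene. Cd36 was among the genes that led a cluster of non-classical monocytes, which made up 433 of 858 wild-type and 91 of 943 SCD monocytes. Of the 7 granulocyte transcription factors, 5 were expressed in neutrophils and 1 was at least 2-fold lower, against 19.3% of all expressed genes. Cebpb, induced in mature and emergency granulopoiesis, was at 452 and 137 CPM, and Cebpe, needed for granule formation at the immature stage, at 228 and 420 CPM. In mature neutrophils none of 4 was past 2-fold, and Cebpb was at 730 and 634 CPM.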

How the data were processed

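Single-cell libraries of DC-enriched spleen cells from 1 wild-type and 1 SCD mouse were analysed. The deposited matrices hold whole UMI counts for every gene in every cell barcode, not normalized by the authors. Cell Ranger 4.0.0 is named in the submitters' processing notes. These notes also name GRCm38.p6. Of 26124 gene identifiers, 26013 matched GENCODE (GRCm38). The members and lists were chosen with earlier results of these data known.

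The filter used the limits of the study's methods (500 to 5000 genes, mitochondrial share below 15%, ribosomal share below 30%). The methods word the mitochondrial and ribosomal limits as exclusion below them, which was read here as exclusion above them. Scran size factors (scran 1.30.0, R 4.3.3), 2000 variable genes without any S100 gene, 30 principal components, 15 neighbours and Leiden clustering at resolution 1 (scanpy 1.11.5, Python 3.11.15) gave clusters for both libraries together. These were named from marker lists (8 best markers, at least 3 at 10 CPM, margin of 0.05), and neutrophils, monocytes and conventional DCs were clustered again. Names were rebuilt here and may differ from those of the study. Sub-clusters with at least 2 markers of another class among their 10 leading genes, and more of these than of their own class, were left out as mixed (6.99% of wild-type and 5.42% of SCD cells). Globin genes were not counted, and 2 sub-clusters with Hbb-bs and Hba-a1 among their leading genes, 1 of immature neutrophils and 1 of mature DCs, were kept. This rule was set after the leading genes had been seen. A further 1.66% and 2.11% of cells stayed unnamed. Doublets called with Scrublet (3.79% and 2.62%) were kept in the main settings. Its automatic threshold was found in the wild-type library alone and used for both.

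UMIs were summed per library and class and given as CPM. With 1 mouse per group no test was run. Poisson, Clopper-Pearson and conditional binomial intervals at 95% cover counting error only, since cells of 1 mouse are not replicates. Calls used 2-fold of log2(CPM + 5). The named genes were the 6 members, the 3 genes most similar to each and the genes of the lists. The scripts were tested on simulated counts.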

Additional observations from a re-analysis of the deposited data

Results flagged for a closer look

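Cells outside the filters, which enter no comparison above, also carried the genes. In cells with over 5000 genes, 517 in wild-type and 1436 in SCD, S100a8 was at 1197 CPM in wild-type and 5010 CPM in SCD, S100a9 at 1336 and 5604 CPM and S100a6 at 166 and 495 CPM. In the other cells that were not kept, 905 and 1376, S100a8 was at 1077 and 4763 CPM and S100a9 at 1277 and 4965 CPM. These values stood out because the SCD level was over 2-fold the wild-type level in data the comparisons do not use.

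S100a4 differed in opposite directions in small classes. It was 2.01-fold higher in SCD erythroid cells (247 and 496 CPM, 55 and 51 cells), where 33.5% of all expressed genes were at least 2-fold higher, and at 0.0616 times the wild-type level in red pulp macrophages. The median log2 difference over all genes expressed in erythroid cells was 0.72, and the S100a4 ratio was 1.08 after scaling by the median ratio and 0.988 as UMIs per cell. It ran from 0.457 to 2.02 under the alternatives, and the difference between these classes was not tested.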

How the results depend on the processing

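No paired analysis was possible because there was 1 mouse per group, and for the same reason no replicate could be left out. Ratios of SCD to wild-type in neutrophils are given for S100a8, S100a9, S100a6 and S100a11 in this order. They were 1.35, 1.30, 1.04 and 0.639 with at least 1000 genes per cell, and 1.29, 1.25, 0.862 and 0.523 with no upper limit on genes. Total count normalization gave 1.48, 1.43, 0.938 and 0.570, and clustering of each library on its own gave 1.52, 1.47, 0.891 and 0.553. Scaling by the median of ratios gave 1.93, 1.86, 1.25 and 0.761, and totals without S100 and granule genes gave 1.85, 1.79, 1.20 and 0.731. Means of per-cell CPM gave 1.84, 1.84, 1.15 and 0.646, and UMIs per cell gave 3.35, 3.24, 2.18 and 1.32. With called doublets removed, S100a8, S100a9 and S100a6 were at 1.47, 1.42 and 0.941. S100a8 and S100a9 were at 1.47 and 1.42 at Leiden resolution 2, at 1.47 and 1.42 with S100 genes kept in the clustering, and at 1.47 and 1.42 with mixed sub-clusters kept, an alternative chosen after seeing the data. Without the mitochondrial and ribosomal filter S100a6 and S100a11 were at 0.940 and 0.572. Without the sub-clusters led by globin genes, also chosen after seeing the data, the values were 1.49, 1.45, 0.975 and 0.571. Of 56 such values, 6 lay on the other side of 1. Calls at 2-fold were recounted in neutrophils under the 8 filter, normalization and clustering settings planned. With no upper limit on genes 1 member, S100a10, was past 2-fold, and none was in the others of these. As UMIs per cell, which was not among them, the ratios of S100a8, S100a9 and S100a6 were above 2.

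Some ratios past 2-fold changed direction, and the cause was not tested. With at least 1000 genes per cell S100a8 and S100a9 in monocytes were at 0.722 and 0.796. In non-classical monocytes they were at 0.729 and 0.937 under total count normalization and at 0.744 and 0.972 at Leiden resolution 2. S100a10 in erythroid cells was at 0.610 with no upper limit on genes, 0.603 without the mitochondrial and ribosomal filter, 0.554 under total count normalization and 0.866 as a mean of per-cell CPM. Of 958 values of 73 other ratios, 518 moved beyond the counting interval, these 10 reversed and 430 stayed within it. In all, 108 of the 958 lay on the other side of 1, of which these 10 had a ratio past 2-fold in the main settings. Without thinning, 141 of the shares of cells moved and 27 did not. Low counts limit S100a4 and S100a10 in neutrophils, and cell number limits red pulp macrophages and erythroid cells. In the deeper dividing neutrophils S100a4 was also low, at 10.8 and 6.87 CPM, as was S100a10, at 5.42 and 9.01 CPM.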
